A study of Mus musculus with 8 samples.

Results

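Metallothioneins are small cysteine-rich proteins that bind zinc and copper, and zinc transporters move zinc across the membranes of the cell. The genes described here are Mt1, Mt2, Mtf1, Slc30a1, Slc30a10, Slc39a1, Slc39a4, Slc39a5 and Slc39a14. They were taken by symbol as the metallothioneins, the zinc-sensing transcription factor and a set of zinc transporters, and all 9 were found among the 21049 gene symbols of the expression table. The transcripts were compared between liver samples of mice given alcohol and of mice given saline.

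Free zinc in the cell is kept very low. When it rises, the factor MTF1 moves to the nucleus and binds metal response elements in the promoters of Mt1, Mt2 and the zinc exporter gene Slc30a1. SLC30 proteins (also called ZnT) carry zinc out of the cytosol, and SLC39 proteins (also called ZIP) carry it in. In the liver, metallothionein genes are also induced by glucocorticoids, by interleukin 6 and by oxidative stress, and the liver takes up zinc from the blood during inflammation through the product of Slc39a14.

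The metal response element core is the sequence that MTF1 recognises, and the promoters that hold it are shown for the 4 genes with the largest changes. Each sequence is the 250 bases before the RefSeq start of the gene on GRCm38.p6, plus strand, 5′ to 3′, and capitals mark each match to the core, spelled TGCACNC or TGCGCNC and searched on both strands. The windows are chr8:94178839-94179088 for Mt1, chr8:94172368-94172617 for Mt2, chr1:191906531-191906780 for Slc30a1 and chr1:185454598-185454847 for Slc30a10.
Mt1: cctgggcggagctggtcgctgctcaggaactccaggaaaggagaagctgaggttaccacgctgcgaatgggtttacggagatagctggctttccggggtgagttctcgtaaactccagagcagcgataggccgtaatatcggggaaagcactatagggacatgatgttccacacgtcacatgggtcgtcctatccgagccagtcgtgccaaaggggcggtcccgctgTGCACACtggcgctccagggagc
Mt2: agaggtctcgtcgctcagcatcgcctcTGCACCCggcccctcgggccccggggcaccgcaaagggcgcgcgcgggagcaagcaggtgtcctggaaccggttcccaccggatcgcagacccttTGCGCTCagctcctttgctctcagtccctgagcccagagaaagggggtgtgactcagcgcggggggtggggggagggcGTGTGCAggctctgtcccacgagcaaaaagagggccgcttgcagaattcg
Slc30a1: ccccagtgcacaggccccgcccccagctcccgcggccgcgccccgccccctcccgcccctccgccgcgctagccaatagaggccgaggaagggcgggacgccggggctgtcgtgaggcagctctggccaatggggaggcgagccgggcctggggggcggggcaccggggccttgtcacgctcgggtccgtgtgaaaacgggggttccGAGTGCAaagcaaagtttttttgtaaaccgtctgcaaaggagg
Slc30a10: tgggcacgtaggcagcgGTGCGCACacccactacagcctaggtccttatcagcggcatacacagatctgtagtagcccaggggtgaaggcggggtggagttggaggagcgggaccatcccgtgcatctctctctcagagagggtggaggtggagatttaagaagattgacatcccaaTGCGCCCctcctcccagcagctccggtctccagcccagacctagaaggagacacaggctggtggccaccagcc
The window of Mt2 held 3 cores and that of Slc30a10 also held 3, of which the first 2 overlap on opposite strands and form the first run of capitals. The windows of Mt1 and Slc30a1 held 1 each. GENCODE lists further starts, at 94179211 and 94179241 for Mt1 and at 94172664 and 94172860 for Mt2, that lie after these windows, and the bases between were not searched. At least 1 core was present in 21.4% of the 32851 RefSeq promoter windows of the same length, and at least 3 in 1.26%. Of the other promoters in the RefSeq table, 1 of the 2 windows of Slc39a5 held 1 core, and those of Mtf1 and Slc39a1 held none. The core of the antioxidant response element, spelled TGACNNNGC, was found once each in the windows of Mt2, Slc30a1 and Slc39a1, 2 times in the other window of Slc39a5 and in 10.2% of all windows, and no match overlapped a metal response element core. The full glucocorticoid response element, AGAACA and TGTTCT set 3 bases apart, was in none of the members' windows and in 3 of the 32851. These matches are descriptions of the letters in these windows and were not tested as binding sites.

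Both groups carried the genotype label WT and, per the design text, the C57BL/6 strain, with 4 samples labelled saline (control) and 4 labelled Alcohol. No source used here gives the dose, the length of feeding or the age and sex of the animals. The labels give liver as the tissue but also name hepatocytes and the AML12 hepatocyte line. They do not tie each sample to an animal of its own, so a p-value here measures only how these samples spread, which may be technical.

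The values are FPKM, in which reads are divided by the length of the gene and the size of the library. Library totals recovered from them were 33872595 to 34789814 reads in controls and 37132631 to 38407511 in the alcohol samples. Alcohol replicates 2 and 4 were the most alike pair, with a chi-square per gene of 8.05 against 41.8 to 167 for the other pairs within groups. Control replicate 1 stood apart from the other controls, at 133 to 167 against 41.8 to 65.5 among those 3. Summed markers of hepatocytes were 54468 to 62517 FPKM in controls and 50263 to 60081 with alcohol. Most of that sum is Alb, and of the 6 markers Cps1 was called higher and Apoa1 and Ttr lower. All 6 endothelial markers were called higher, with sums of 12.3 to 18.8 and 55.9 to 65.7 FPKM. Of these, Lyve1 and Kdr passed the minimum mean of 1 FPKM only through the alcohol samples where they were high. Their controls stood at 0.209 to 0.747 and 0.628 to 1.17 FPKM. Of the 6 stellate cell markers 3 were higher and 1 lower, with sums of 38.3 to 67.8 and 97.8 to 138 FPKM. Among these, Acta2 passed the minimum only through the controls, with alcohol samples at 0.286 to 1.48 FPKM. Adipocyte markers summed to 4.01 to 25.3 FPKM in controls and 0 to 0.387 with alcohol, and the 1 tested, Cfd, was lower. Cfd passed the minimum only through the controls, with alcohol samples at 0 to 0.234 FPKM. Of 5 tested Kupffer and macrophage markers 1 was lower (sums of 21.1 to 76.8 and 26.0 to 48.8 FPKM), as was 1 of 5 red cell markers (179 to 362 and 122 to 196 FPKM). Only 1 of 5 cholangiocyte markers was tested, and it was not called, and none of the 6 T, NK and B cell markers reached the minimum. The part of these cell types in the results below was not tested, and in tissue samples fewer cells of a type and less RNA per cell cannot be told apart. The median log2 change of all 9228 genes tested was 0.24, and it was 0.40 on the TPM scale and close to 0 under the scalings that centre all genes.

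Transcripts of both metallothioneins and of the exporters Slc30a1 and Slc30a10 were several times higher in the alcohol samples, in every sample. Of the 9 genes, 8 reached a mean of 1 FPKM over the 8 samples and were tested, and 6 were called higher (Mt1, Mt2, Mtf1, Slc30a1, Slc30a10 and Slc39a4) by limma at an adjusted p under 0.05. None was called lower. The call rate among all genes tested was 44.2% higher and 13% lower, so 6 of 8 is a count that has to be read against a high background. A call with a log2 change of at least 1 was made for 7.07% of all genes tested, and for 4 of the 8 here (Mt1, Mt2, Slc30a1 and Slc30a10). The same 6 genes had groups that did not overlap, against 50.2% of all genes tested. With libraries centred on the median gene (median-of-ratios scaling), 4 of the 8 were called higher and 1 lower, beside 25.9% and 26.5% of all genes. With quantile normalization 4 were higher and none lower, beside 24.1% and 25%, and on the TPM scale, where each library sums to the same total, 7 were higher and none lower, beside 52.7% and 8.82%.

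**Figure D1:**
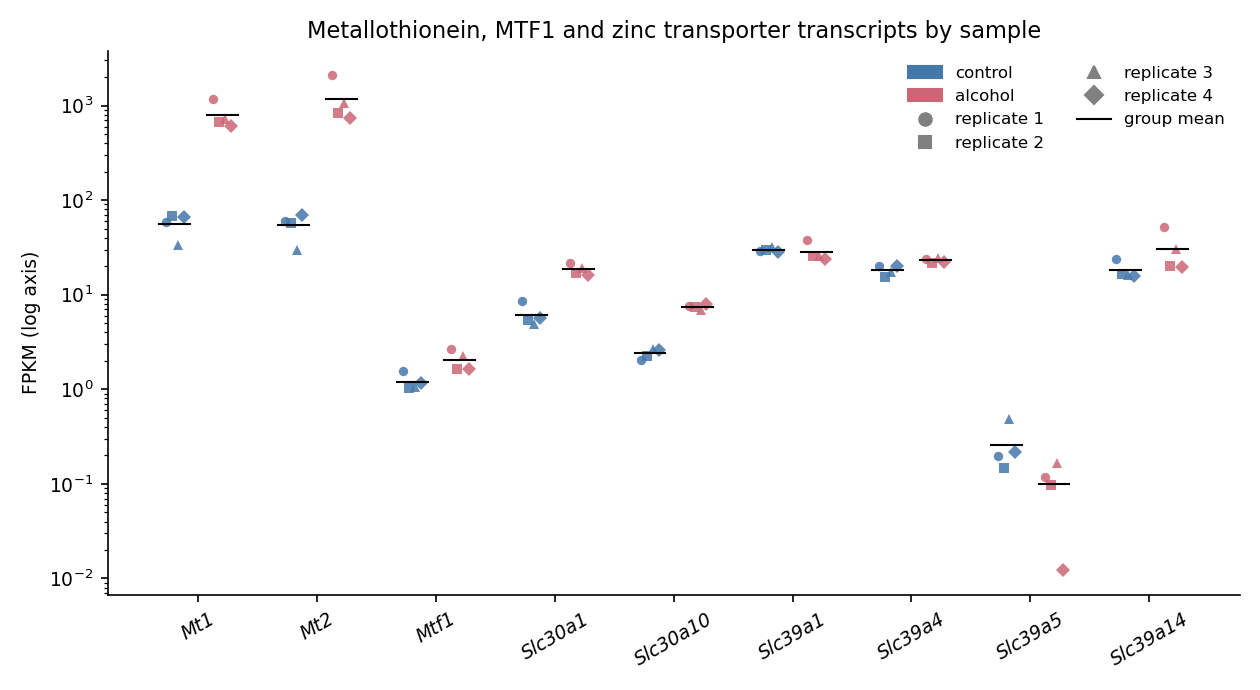
FPKM of each gene (log axis) in the 4 control and 4 alcohol samples, with a marker shape for each replicate number and a bar for the group mean. The groups are separate for Mt1, Mt2, Mtf1, Slc30a1, Slc30a10 and Slc39a4 and overlap for Slc39a1, Slc39a5 and Slc39a14.

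Mt1 encodes metallothionein 1, which is made in many tissues, the liver among them, and lies at chr8:94179082-94180327 on the plus strand of GRCm38. Control replicates 1 to 4 stood at 58.6, 68.2, 33.5 and 66.3 FPKM and alcohol replicates 1 to 4 at 1171, 672, 727 and 602 FPKM. The lowest alcohol sample was well above the highest control, and alcohol replicate 1 was the highest of its group. Control and alcohol means were 56.6 ± 16.0 and 793 ± 257 FPKM (SD, n = 4 each), a 14.0-fold ratio. On the log2 scale it changed by 3.79 ± 0.25 (SE; limma adjusted p 1.99e-06).

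Mt2, the gene of metallothionein 2, lies next to Mt1 at chr8:94172664-94173568 on the same strand. It stood at 60.1, 57.0, 29.5 and 69.8 FPKM in control replicates 1 to 4 and at 2081, 838, 1075 and 737 FPKM in alcohol replicates 1 to 4. The order of the alcohol samples was the same as for Mt1, and control replicate 3 was the lowest of its group for both genes. Its means of 54.1 ± 17.3 and 1183 ± 615 FPKM (SD, n = 4 each) differed 21.9-fold. This is a log2 change of 4.37 ± 0.33 (SE; limma adjusted p 4.17e-06). Exons of Mt2 share 432 bases (73.5% of its exon bases) with Gm45774 on the other strand, and without strand information reads of the 2 genes cannot be told apart. Mt1 and Mt2 shared no 50-base stretch with each other or with another gene.

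By rank of FPKM among all listed genes, Mt1 moved from between 836 and 1438 in the control samples to between 57 and 110 in the alcohol samples. Mt2 moved from between 806 and 1534 to between 36 and 78. As a share of all recovered reads, the 2 genes together took 0.0107%, 0.0118%, 0.00585% and 0.0122% in control replicates 1 to 4. In alcohol replicates 1 to 4 the share was 0.263%, 0.131%, 0.151% and 0.117%. The 95% exact (Clopper-Pearson) binomial intervals on these shares, which cover counting error only, were narrow against the gap, with upper bounds of at most 0.0126% in the controls and lower bounds of at least 0.116% with alcohol. Mt3 and Mt4 were not analysed here.

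The ratio of Mt1 to Mt2 within a sample does not change when a whole library is multiplied by the same factor. It was 0.974, 1.20, 1.13 and 0.950 in control replicates 1 to 4 and 0.563, 0.802, 0.676 and 0.817 in alcohol replicates 1 to 4. The highest alcohol ratio lay below the lowest control ratio, so the values of Mt2 rose by more than those of Mt1. Any reads of Gm45774 counted in Mt2 would enter this ratio, and their part was not tested. The difference in mean log2 ratio was -0.58, with an exact 2-sided permutation p of 0.0286, the smallest that 70 assignments of 4 against 4 can give. The level of one gene against the other in a sample rests on the gene lengths used, 1258 bases for Mt1 and 556 for Mt2 as recovered from the values, whereas the change of the ratio between groups does not.

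**Figure D2:**
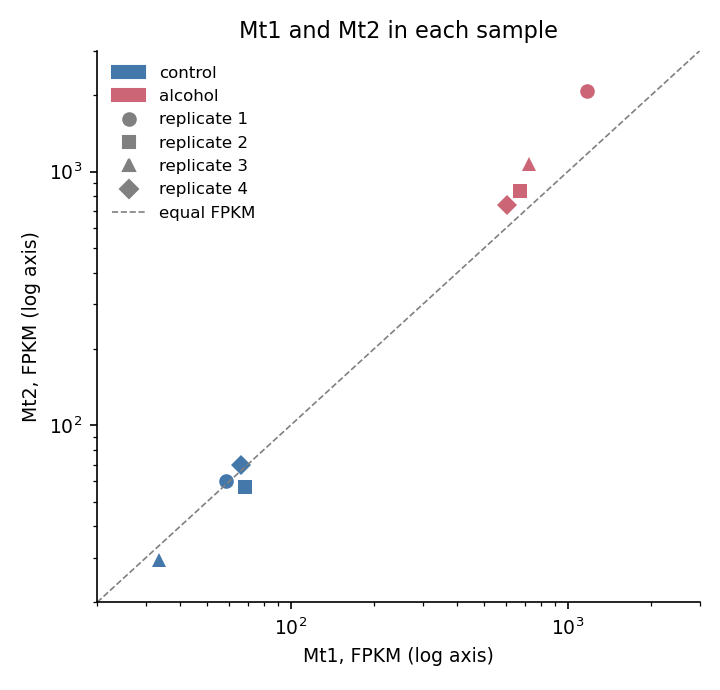
Mt2 against Mt1 in each of the 8 samples, in FPKM on log axes, with a dashed line at equal values. Controls lie around the line, with ratios of Mt1 to Mt2 of 0.950 to 1.20, and alcohol samples lie above it, with ratios of 0.563 to 0.817.

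Mtf1, which encodes the zinc-sensing transcription factor (chr4:124802104-124849800, plus strand), was among the least abundant of the genes. Controls stood at 1.54, 1.04, 1.06 and 1.16 FPKM and alcohol samples at 2.64, 1.63, 2.25 and 1.64 FPKM, in replicate order. The groups did not overlap, but the highest control (replicate 1) came close to the lowest alcohol sample. Mtf1 changed by 0.46 ± 0.13 (SE) on the log2 scale (limma adjusted p 0.0109). The call was lost under scalings that centre all genes, with 0.27 and an adjusted p of 0.0738 under median-of-ratios scaling and 0.13 and 0.342 under quantile normalization. Exons of Mtf1 share 721 bases (8.09% of its exon bases) with 1110065P20Rik on the other strand, which had means of 15.8 and 16.7 FPKM. Without strand information reads of the 2 genes cannot be told apart there. The part of such reads in the low values of Mtf1 was not tested.

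Slc30a1 encodes the transporter that exports zinc across the plasma membrane (chr1:191906767-191913247, plus strand). In replicate order it stood at 8.51, 5.35, 4.93 and 5.64 FPKM in controls and at 21.5, 17.0, 19.3 and 16.1 FPKM in alcohol samples. Control replicate 1 was the highest control, and each alcohol sample was nonetheless well above it. Between the means of 6.10 ± 1.63 and 18.5 ± 2.43 FPKM (SD, n = 4 each) the ratio was 3.03-fold. The log2 change came to 1.47 ± 0.15 (SE; limma adjusted p 3.38e-05).

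Slc30a10 encodes a member of the same family that is best known as an exporter of manganese into bile and gut (chr1:185454848-185468762, plus strand). It stood at 2.04, 2.27, 2.68 and 2.62 FPKM in controls and at 7.58, 7.48, 6.91 and 7.95 FPKM in alcohol samples, in replicate order. The spread within each group was small, and alcohol replicate 1 did not stand out. With means of 2.40 ± 0.301 and 7.48 ± 0.429 FPKM (SD, n = 4 each), the ratio was 3.11-fold. The fitted log2 change was 1.32 ± 0.10 (SE; limma adjusted p 3.27e-06). Exon bases shared with a gene on the other strand numbered 468 for Slc30a1 and 533 for Slc30a10, and the genes there, 1700034H15Rik and Gm2061, stood at means of at most 0.163 and 0.410 FPKM. Mt1, Mt2, Slc30a1 and Slc30a10 stayed called higher under every alternative setting run, including each one that left out a replicate.

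Of the 4 SLC39 importers among the genes, only Slc39a4 was called, and its call depended on the settings. Slc39a4 encodes the importer best known for zinc uptake in the gut (chr15:76612383-76617384, minus strand). It stood at 19.9, 15.4, 17.4 and 20.01 FPKM in controls and at 24.1, 21.9, 24.3 and 22.0 FPKM in alcohol samples. The groups were separate by a narrow gap, and the means were 18.2 ± 2.20 and 23.1 ± 1.31 FPKM (SD, n = 4 each). Its log2 change of 0.33 ± 0.11 (SE; limma adjusted p 0.0211) was close to the median of 0.24 over all genes. It was 0.04 with an adjusted p of 0.750 under median-of-ratios scaling, and the call was also lost without control replicate 2 (adjusted p 0.0643), control replicate 3 (0.0580) or alcohol replicate 3 (0.0537).

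Slc39a14 encodes a hepatocyte importer of zinc, manganese and iron (chr14:70303469-70351425, minus strand). It stood at 23.9, 16.5, 16.1 and 15.8 FPKM in controls and at 52.1, 19.9, 30.2 and 19.7 FPKM in alcohol samples. The groups overlapped through control replicate 1, and alcohol replicate 1 stood above the rest. At a log2 change of 0.63 ± 0.27 (SE; limma adjusted p 0.0694) it was not called. Without alcohol replicate 1 it was 0.34, and without control replicate 1 it was 0.76 with an adjusted p of 0.0455. It also passed the threshold without alcohol replicate 2 or without alcohol replicate 4, the 2 most alike samples, at 0.79 in both cases with adjusted p-values of 0.0355 and 0.0328.

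Slc39a1, the gene of an importer at the plasma membrane of many cell types (chr3:90248172-90253612, plus strand), stood at 29.2, 29.7, 31.8 and 28.5 FPKM in controls. The alcohol samples stood at 38.0, 25.9, 25.8 and 24.0 FPKM. Alcohol replicate 1 was above every control and the other 3 alcohol samples below every control. Its log2 change of -0.09 ± 0.14 (SE; limma adjusted p 0.607) did not pass the test. The 2 scalings that centre all genes differed in the call. It was called lower under median-of-ratios scaling, at -0.38 with a limma adjusted p of 0.0415. Under quantile normalization it was not called, at -0.20 with a limma adjusted p of 0.298. On the TPM scale the sign turned to 0.06. Of its 50-base stretches 21.8% also occur in the pseudogene Slc39a1-ps, so reads of the 2 may have been divided between them.

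Slc39a5 encodes an importer of the basolateral membrane of gut and pancreas cells (chr10:128395931-128401229, minus strand) and lay below the expression minimum. Its recovered reads numbered 15, 11, 37 and 16 in control replicates 1 to 4 and 10, 8, 14 and 1 in alcohol replicates 1 to 4. The pooled reads, 79 and 33, gave a ratio of 0.381 relative to library totals, with a 95% interval of 0.246 to 0.579 for counting error only. The spread between samples was wider than that, and in the fit of all listed genes it was -0.19 ± 0.08 on the log2 scale (SE; limma adjusted p 0.125). Markers of exocrine pancreas, where the gene is also active, summed to 10.8 to 18.9 FPKM in controls and 6.59 to 10.6 FPKM with alcohol, with 1 of 4 tested and that 1 lower. Most of that sum is Cela1, and Cpa1, Prss2 and Amy2a1 were each at 0 in 6 samples. Control replicate 3, with the most Slc39a5 reads (37), was among those at 0 for each. The part of these markers in the values of Slc39a5 was not tested.

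By mean FPKM the order in controls was Mt1, Mt2, Slc39a1, Slc39a4, Slc39a14, Slc30a1, Slc30a10, Mtf1 and Slc39a5. The ranges of Mt1 and Mt2, of Mt2 and Slc39a1, and of Slc39a4 and Slc39a14 overlapped, and all other neighbours were separate. In the alcohol samples the order was Mt2, Mt1, Slc39a14, Slc39a1, Slc39a4, Slc30a1, Slc30a10, Mtf1 and Slc39a5. There the ranges of Mt2 and Mt1 overlapped, as did those of Slc39a14, Slc39a1 and Slc39a4, and the lowest metallothionein value, 602 FPKM, stood far above the highest transporter value, 52.1 FPKM.

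The wider transporter families were described from the full lists of SLC30 and SLC39 genes. Of the 24 genes of both families 17 were tested, and 10 were called higher and none lower, with a median log2 change of 0.39 beside 0.24 for all genes. All genes tested were called higher in 44.2% and lower in 13% of cases. By family, 4 of 7 tested SLC30 genes and 6 of 10 tested SLC39 genes were called higher. Under median-of-ratios scaling 7 of the 17 were higher and 1 lower, with a median of 0.14, beside 25.9% and 26.5% of all genes. Among the genes outside the 9 above, Slc39a7, which releases zinc from the endoplasmic reticulum, rose from 21.1 to 41.5 FPKM (log2 change 0.96 ± 0.14 (SE), limma adjusted p 3.04e-04). Slc39a6, a plasma membrane importer, rose from 0.385 to 1.63 FPKM (0.92 ± 0.09, limma adjusted p 2.35e-05). Each of its control values lay below the 1 FPKM minimum, which it passed only through the alcohol samples where it was high. Its call, which the counts above include, has that limit. Slc39a8, the closest relative of Slc39a14, rose from 1.70 to 3.73 FPKM (0.80 ± 0.10, limma adjusted p 1.18e-04). Slc30a4 rose by 0.77 and Slc39a3 by 0.69 on the log2 scale, and these 5 genes also stayed called under both centring scalings. Slc30a6 (0.39) and Slc39a9 (0.36) were called in the deposited scaling but lost the call under both. Slc30a5, Slc30a7, Slc30a9, Slc39a11 and Slc39a13 had log2 changes of 0.08 to 0.22 that did not pass the test, and 7 genes of the families lay below the minimum.

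**Figure D3:**
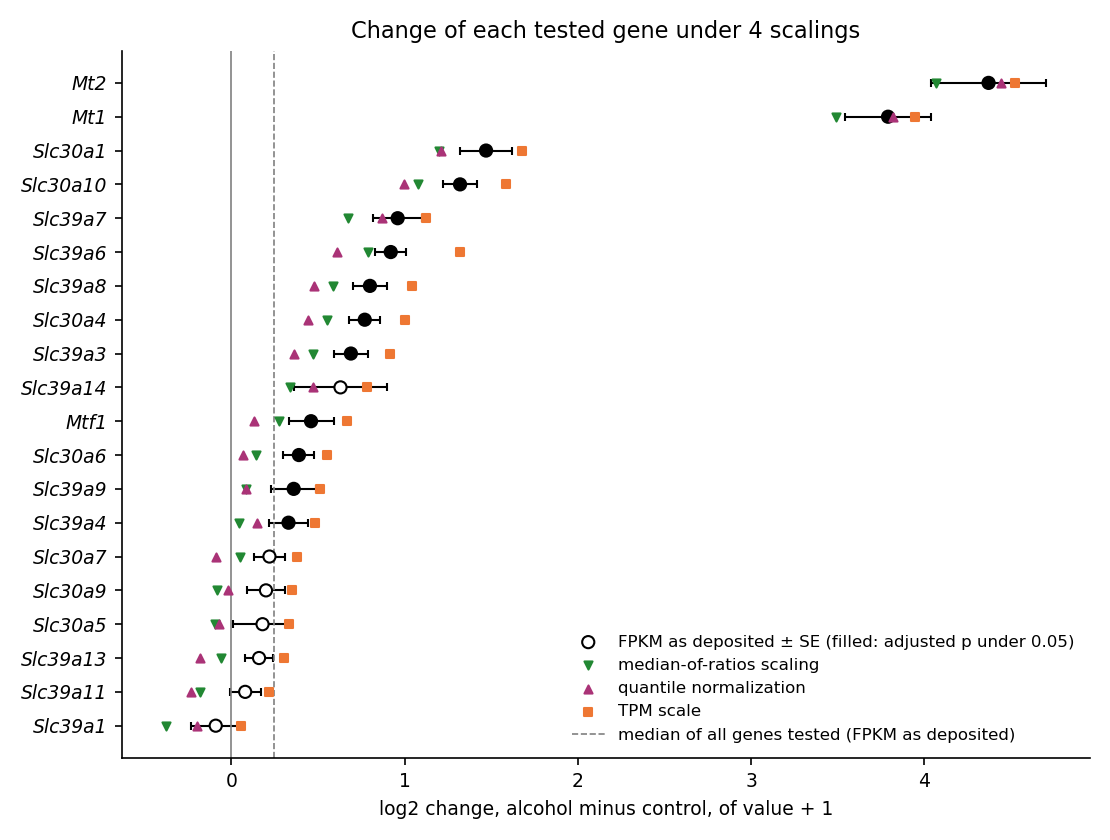
Log2 change, alcohol minus control, of Mt1, Mt2, Mtf1 and each tested SLC30 and SLC39 gene: circles with SE bars for the deposited FPKM (filled where the adjusted p is under 0.05), small symbols for 3 other scalings, and a dashed line at the median of all genes tested (0.24). Mt1, Mt2, Slc30a1 and Slc30a10 lie to the right of 1 or next to it under every scaling. The dashed line holds for the deposited FPKM only. Under median-of-ratios scaling and quantile normalization the median of all genes tested was -0.003 and -0.008. Slc39a4 lay above that median, at 0.04 and 0.15, and Slc39a1 below it, at -0.38 and -0.20.

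Within the alcohol group, the samples differed in a similar way for several of the genes. In the alcohol group the order from high to low was replicate 1, 3, 2 and 4 for Mt1, Mt2, Slc30a1 and Slc39a14, which is 4 of 9 genes (44.4%) against 8.71% of all genes tested. This order was picked after the values were seen. The genes shared no such order in the controls. There, control replicate 1 was the highest for 3 of 9 genes, against 47.1% of all genes tested. Alcohol replicate 1 was the highest alcohol sample for 6 of 9 genes, against 33.8% of all genes tested. That sample also had the highest summed neutrophil markers, 34.7 FPKM against 1.45 at the lowest of the group and 2.68 to 4.54 FPKM in controls. The sum there came from S100a8 (13.7 FPKM) and S100a9 (18.4 FPKM), while Ly6g was listed at 0 in the other 7 samples and at 0.0279 FPKM in this one, and none of the list's 2 tested markers was called. Most genes of the interleukin 6 and STAT3 list described further below were also highest of the alcohol samples there, but not Il6ra and Saa3. Saa1 stood at 520 FPKM against 5.53 to 10.5 in the other alcohol samples, and Lcn2 at 270 against 9.44 to 16.6. Controls stood at 54.8 to 832 FPKM for Saa1 and 8.25 to 61.3 FPKM for Lcn2. The parts of neutrophil transcripts and of interleukin 6 in the values of alcohol replicate 1 were not tested.

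Correlations are given as descriptions over 8 samples, between deviations from the group means on the log2(FPKM + 1) scale, since a correlation across both groups would restate the difference between them. Genes of one sample share its library and its scaling. Mt1 and Mt2 had a Pearson r of 0.96 and a Spearman rho of 0.93. The r was 0.95 without alcohol replicate 1 and 0.67 without the 2 samples farthest on Mt1 (control replicate 3 and alcohol replicate 1), so part of it rested on those samples. Mtf1 and Slc39a14 had an r of 0.96 and a rho of 0.88, and Mtf1 and Slc30a1 an r of 0.87 and a rho of 0.76. Without the 2 samples farthest on Mtf1 (control replicate 1 and alcohol replicate 1) the r values were 0.95 and 0.86. Slc30a10 went the other way from Slc30a1 within groups, with an r of -0.73 (-0.68 without the same 2 samples, farthest on Slc30a1 too) and a rho of -0.64, although both genes were higher with alcohol. Over the 28 pairs of tested genes r was above 0 in 22, and in 17 without alcohol replicate 1. The same share over pairs of all genes is not given here, so these counts have no background to be read against.

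**Figure D4:**
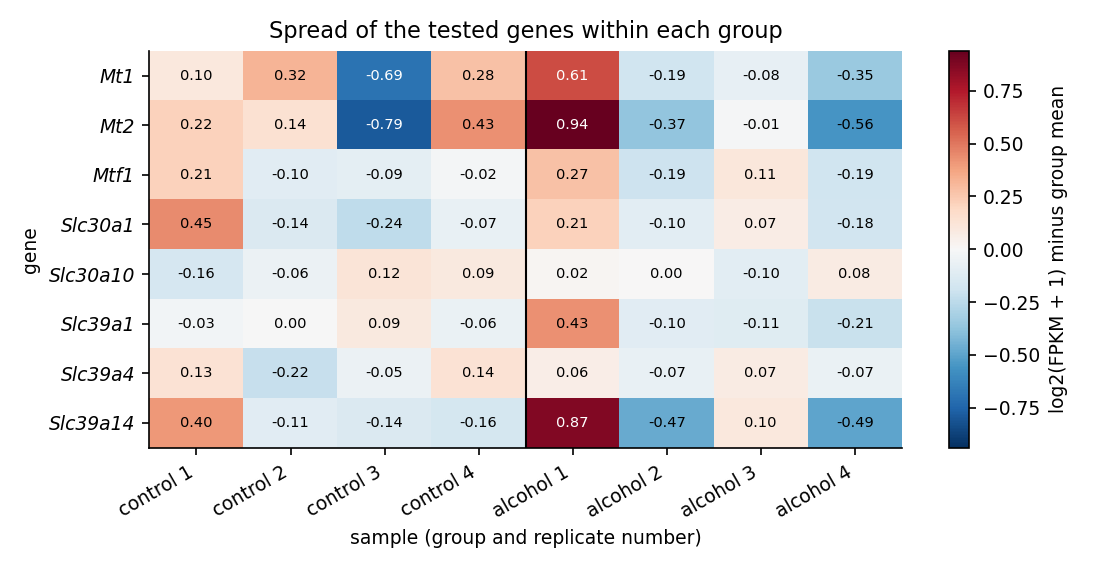
Deviation of each tested gene from its group mean on the log2(FPKM + 1) scale, in each of the 8 samples (red above, blue below the mean). Alcohol replicate 1 is above the mean by 0.94 for Mt2, 0.87 for Slc39a14 and 0.61 for Mt1, control replicate 3 is lowest for Mt1 and Mt2, and Slc30a10 stays within 0.16 of its group means.

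The genes whose within-group deviations were most like those of Mt1, among 9227 others, were Golga1 (r = 0.980), Mt2 (0.964), Leng8 (0.961), Trim41 (0.958) and Ints14 (0.958), over 8 samples. Most opposite were Pth1r (-0.961), Fuca1 (-0.958) and Serpina1d (-0.956). These are the extremes of 9227 values and were not tested. The ranking rested on the 2 samples farthest on Mt1: without them r was 0.732 for Golga1, 0.674 for Mt2, 0.672 for Ints14, 0.462 for Trim41 and 0.239 for Leng8. Of the other tested genes here, Slc39a14 had 0.636, Mtf1 0.588, Slc30a1 0.527, Slc39a1 0.498, Slc39a4 0.242 and Slc30a10 -0.348. In that order they ranked 742, 1000, 1353, 1537, 3339 and 7366 among the 9227, so many other genes were more like Mt1. The r values also moved when samples were left out. Without alcohol replicate 1, Slc39a1 turned to -0.590, Slc39a14 had 0.235, Mtf1 0.278, Slc30a1 0.380, Slc39a4 0.139 and Slc30a10 -0.528. Without both farthest samples Slc39a1 had 0.617, Slc30a1 turned to -0.322 and Slc39a4 to -0.153, and Slc39a14 had 0.042, Mtf1 0.00 and Slc30a10 -0.071.

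Lists of genes that share a regulator or a metal with the metallothioneins were counted in the same way, and each count is to be read against 44.2% of all genes higher and 13% lower. Of 5 tested genes reported as MTF1 targets outside the 9, Ndrg1 (log2 change 1.21) and Csrp1 (0.94) were called higher and none lower, with a median of -0.03. Of 20 tested genes of copper, iron and manganese transport 5 were higher and 3 lower, with a median of -0.05. The copper chaperone of superoxide dismutase, Ccs, fell from 150 to 70.5 FPKM, and the metal importer Slc11a2 rose from 2.28 to 4.65 FPKM. Of 13 tested zinc-binding or zinc-dependent proteins 3 were higher and 2 lower, with a median of 0.17, and the zinc enzyme Alpl had the smallest p, at a log2 change of 1.61. Under median-of-ratios scaling, where 25.9% of all genes were higher and 26.5% lower, 2 genes of the MTF1 target list were higher and 2 lower (median -0.33). The metal transport list then had 1 higher and 7 lower, and the zinc-binding list 1 higher and 5 lower.

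The lists named for other inducers of metallothionein are read against the same shares of all genes, 44.2% higher and 13% lower. Of 9 glucocorticoid-induced genes 5 were called higher and none lower, with a median log2 change of 0.50, and these were led by Sgk1 (4.37), Tat (1.27), Klf9 (0.56) and Fkbp5 (1.00). Tsc22d3, another gene of that list, had a log2 change of 0.01 that did not pass the test. Of 18 genes of interleukin 6 signalling through STAT3 and of the acute phase, 2 were higher (Il6st and Apcs) and 4 lower (Saa3, Orm1, Orm2 and Saa1). Their median was -0.27, and Saa3 had the smallest p, at a log2 change of -1.46. Without alcohol replicate 1 the list had 2 higher and 8 lower, with a median of -0.61. In that setting 3821 of the 9228 genes tested were higher and 1066 lower. Of 11 tested targets of the oxidative stress factor NRF2, 7 were higher and none lower, with a median of 1.71. Gsta1, which this count includes, had controls of 0.167 to 0.744 FPKM. It passed the 1 FPKM minimum only through the alcohol samples where it was high, so its call has that limit. Hmox1 (3.89), Gstm3 (4.07), Srxn1 (2.34) and Nqo1 (1.71) had the smallest p-values of that list. Calls in these lists moved with the scaling: under median-of-ratios scaling the counts were 3 higher of the glucocorticoid list, 2 higher and 6 lower of the acute phase list, and 6 higher and 2 lower of the NRF2 list, beside 25.9% higher and 26.5% lower of all genes.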

How the data were processed

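Deposited values were FPKM, fragments scaled by the authors to gene length and library total, 1 column for each of 8 samples. RNA was purified on columns and made into mRNA libraries with a SMARTER kit, per the labels' protocols. The submitters' processing notes name GRCm38 and mm10. No source used here gives the aligner, the counter or whether strand was kept.

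For each of 9228 genes that averaged 1 FPKM or more, log2(FPKM + 1) was fitted on group in limma 3.58.1 (R 4.3.3) with a trend on mean level, and Benjamini-Hochberg adjusted p-values were read at 0.05. Log2 changes are on that scale and understate changes of low genes. Whole reads were recovered from the deposited FPKM for 21044 of 21049 genes to within 1e-06 of a read and for 3 more, Mt2 among them, to within 1e-05. They were tested with limma-voom as an alternative. The fit was tested on simulated data. The exact permutation test was run in SciPy 1.17.1. Gene positions and exon overlaps come from GENCODE release M21 on GRCm38, and promoters from RefSeq, whose table held 7 of the 9 genes. The genes and lists were chosen with earlier results of these data known. Named genes are all 9 members, the other transporters, up to 4 called genes per further list by smallest p, and the 5 most and 3 least like Mt1. S100a8, S100a9, Ly6g, Tsc22d3, Saa1, Lcn2, Il6ra, Orm2, Gsta1, Lyve1, Kdr, Acta2 and Cfd were named after their values were seen. Alternatives covered the scaling, the minimum, the pseudocount, the replicate block and leaving out each sample.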

Additional observations from a re-analysis of the deposited data

Results flagged for a closer look

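Dixon's rule for a group of 4 flags a highest or lowest sample whose gap to the nearest other is too large a part of the group's range, and 20 groups of values were tested, of which chance flags about 1 in 20. Slc39a1 in alcohol replicate 1, at 38.0 FPKM, lay far above the other 3 alcohol samples, with a gap of 0.864 of the range. Slc39a14 in control replicate 1, at 23.9 FPKM, lay far above the other 3 controls, with a gap of 0.918 of the range.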

How the results depend on the processing

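Mt1, Mt2, Slc30a1 and Slc30a10 kept their direction and their call in all 17 alternatives run for each, with log2 changes of 3.49 to 3.94, 4.05 to 4.55, 1.20 to 1.68 and 1.00 to 1.65. Mtf1, Slc39a1, Slc39a4 and Slc39a14 changed their call or direction with the scaling, and Slc39a4 and Slc39a14 also with the samples used. All genes called higher fell from 4080 to 2386 under median-of-ratios scaling and 2221 under quantile normalization, and those called lower rose from 1203 to 2446 and 2307. The share of calls that were higher was 77.2% as deposited, 49.4% and 49.1% under those scalings and 85.7% on the TPM scale. The members called higher numbered 6, and 4 under both centring scalings. Under median-of-ratios scaling 1 member, Slc39a1, was called lower (-0.38). It was not called under quantile normalization (-0.20), and on the TPM scale it turned to 0.06. Mtf1 lost its call at 0.27 and 0.13, and Slc39a4 at 0.04 and 0.15. Leaving out 1 sample gave 0.26 to 0.38 for Slc39a4, not called without control replicate 2 or 3 or alcohol replicate 3. For Slc39a14 it gave 0.34 to 0.79, called without control replicate 1 or alcohol replicate 2 or 4. Slc39a14 also passed at 0.78 on the TPM scale and at 0.79 with alcohol replicates 2 and 4 averaged. The genes of the further lists called higher went from 31 to 20 under median-of-ratios scaling, and those called lower from 9 to 22, to 4 with no expression minimum and to 16 with the replicate block. The r of Mt2 with Mt1 was 0.963 under median-of-ratios scaling, 0.961 without alcohol replicate 4, 0.945 without alcohol replicate 1 and 0.674 without the 2 farthest samples, the last 2 chosen after seeing the data. The causes of these changes were not tested.

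The labels do not say that equal numbers share an animal, so same-numbered samples were not taken as pairs. Their correlations of deviations were 0.349, 0.216, 0.071 and 0.28, all above 0, against -0.425 to 0.29 for samples of unlike number. These values do not settle whether the samples are paired. With a replicate block 4307 genes were higher and 1380 lower, and 7 of the 8 tested members were called higher, with Slc39a14 at 0.63 (adjusted p 0.00617). Paired by number, the ratio of Mt1 to Mt2 kept its difference of -0.58 with a p of 0.125, the smallest that 4 pairs allow. Not every sample correlated best with its own number. Slc39a5 had 1 to 37 reads a sample. It was not called in any alternative, and its log2 change ran from -1.58 on recovered reads to -0.11 without control replicate 3.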
